A study of Mus musculus with 12 samples.

Results

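The comparison of regorafenib alone with vehicle was made in 6 of the 12 tumour RNA libraries of the series, 3 from regorafenib-treated and 3 from vehicle-treated tumours. Libraries were assigned to these groups by their labels, and all genes of the deposited count table entered the comparison. The tumours arose from the mouse line Sq-1979, which the labels give as squamous carcinoma of the head and neck. Its cells were injected in Matrigel, subcutaneously, into C3H/HeN males that were 6 weeks old. From day 20 after implantation the mice received vehicle, regorafenib at 5 mg per kg per day, anti-PD1, or both agents, and the labels name daily oral gavage for every arm. The vehicle and regorafenib tumours carried no anti-PD1, and the other 6 libraries are used here only to ask how regorafenib values looked beside that antibody. The model has 1 cell line, implanted away from the mouth, in hosts of 1 sex with their own immune system. The labels do not say whether the 3 libraries of a group came from 3 mice, so p-values measure only the spread between these libraries.

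Regorafenib is an oral inhibitor of many kinases, among them the receptors for vascular endothelial growth factor (VEGF), the angiopoietin receptor Tie2, the platelet-derived and fibroblast growth factor receptors, Kit, Ret and Raf kinases, and the macrophage receptor for colony-stimulating factor. VEGF receptor signalling keeps sprouting endothelial tip cells alive and migrating, platelet-derived growth factor holds pericytes and fibroblasts around vessels, and the Raf to ERK cascade carries growth signals in tumour cells. The drug is used in advanced colorectal, liver and gastrointestinal stromal cancers, and it has been studied beside antibodies to the checkpoint receptor PD-1, which is carried by activated T cells.

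The 12 libraries held 22591835 to 28209036 counts, and 16974 genes had enough counts to be tested. Defining squamous keratins were high in every library of the comparison. Krt5, the basal keratin, was at 6724, 7890 and 6875 counts per 1000000 counts of the TMM-scaled library (CPM) in the vehicle libraries and at 5894, 5515 and 6868 CPM in the regorafenib libraries. The 3 vehicle libraries lay close together and the 3 regorafenib libraries did not. The standard deviation (SD) of the log2 CPM difference over all tested genes was 0.389 to 0.402 for the 3 pairs of vehicle libraries, against 0.746 to 0.76 for the 3 pairs of regorafenib libraries. Pairs of 1 regorafenib and 1 vehicle library had a median of 0.66 and ranged from 0.559 to 0.776. Regorafenib 1 was at 0.742 to 0.776 from the vehicle tumours, while regorafenib 2 at 0.559 to 0.648 and regorafenib 3 at 0.629 to 0.68 were nearer to every vehicle tumour than to the other regorafenib tumours. Each regorafenib library had its nearest neighbour outside its own group: combination 3 for regorafenib 1 at 0.644, anti-PD1 3 for regorafenib 2 at 0.442, and anti-PD1 1 for regorafenib 3 at 0.471.

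**Figure D1:**
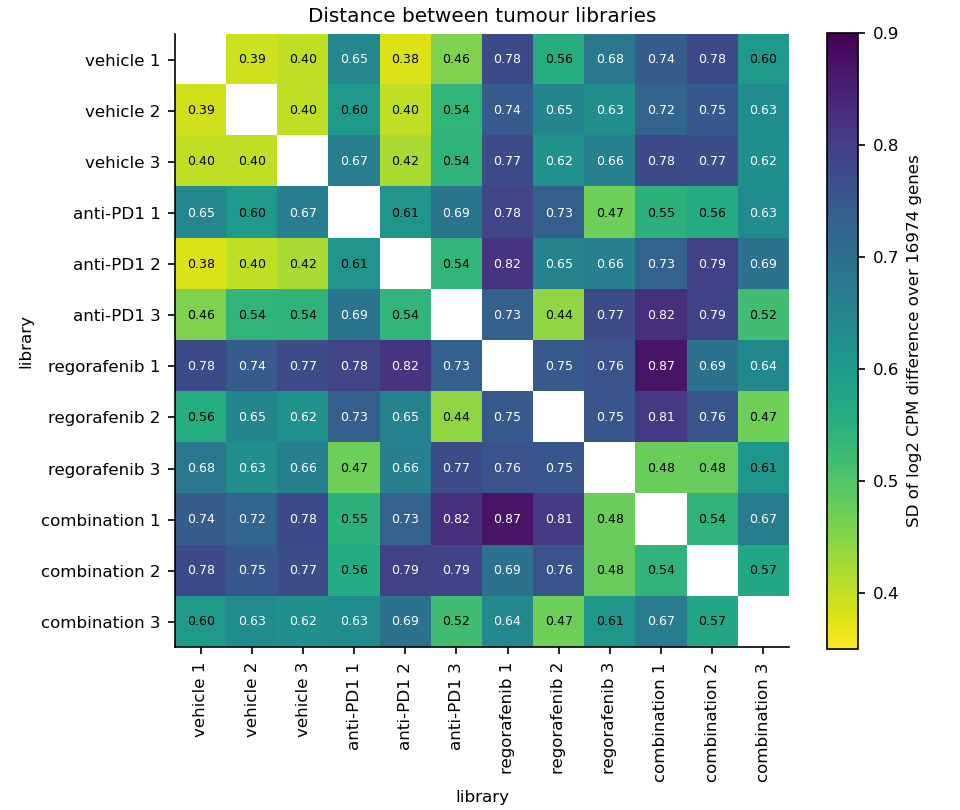
SD of the log2 CPM difference over 16974 genes for each pair of the 12 libraries, which stand on both axes; a larger number and a darker square mean a less similar pair. The vehicle pairs are at 0.389 to 0.402 and the regorafenib pairs at 0.746 to 0.76.

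One gene passed the threshold of an adjusted p of 0.05 in regorafenib against vehicle. It was Mest, a paternally expressed imprinted gene of the mesoderm (GRCm38, chr6:30723547-30748465, plus strand, protein coding). Mest was at 13.8, 14.0 and 12.4 CPM in the vehicle libraries and at 3.00, 2.37 and 1.92 CPM in the regorafenib libraries. Every regorafenib value was far under every vehicle value. Mest fell by 2.46 on the log2 scale (standard error 0.253), which is 5.51-fold lower, with an adjusted p of 0.0203 by edgeR's quasi-likelihood test with Benjamini-Hochberg adjustment. Its means were 13.4 ± 0.859 CPM (SD, n = 3) with vehicle and 2.43 ± 0.544 CPM (SD, n = 3) with regorafenib. The call was lost without any 1 of the 6 libraries compared, and without combination 3, with adjusted p-values of edgeR up to 0.141. It was also lost with the replicate block, with only the 6 libraries compared and with limma voom, each of which called 0 genes. The log2 fold change lay between -2.64 and -2.30 when any 1 of the 12 libraries was left out. Mest lies beside Copg2 on the other strand, and whether strand was used in counting is not given in the sources used here.

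That single call is 0.00589% of the genes tested. At an adjusted p under 0.1 there were 24 genes (0.141%), of which 13 were higher and 11 lower with regorafenib. An unadjusted p under 0.05 was reached by 2398 genes (14.1%), 1381 of them higher (8.14%) and 1017 lower (5.99%). DESeq2 in place of edgeR called 272 genes higher and 153 lower, which is 1.60% and 0.901% of the genes. The 3 regorafenib values lay wholly above the 3 vehicle values for 1802 genes (10.6%) and wholly below them for 1732 genes (10.2%). Groups that do not overlap are counted below against those percentages. Taken singly, regorafenib 1, 2 and 3 lay above the vehicle range for 37.2%, 36.1% and 36.2% of all genes. They lay below it for 37.4%, 37.7% and 36.1%. Counts of list members outside the vehicle range in 1 tumour stand against these shares.

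The genes of smallest p that were lower with regorafenib included genes of endothelium, smooth muscle, matrix and sterol synthesis. Tfr2, a transferrin receptor that takes part in iron sensing, was at 2.56, 4.94 and 3.93 CPM with vehicle and at 0.973, 0.923 and 0.849 CPM with regorafenib. Pcdh12, a protocadherin of endothelial cells, was at 3.10, 2.44 and 2.47 CPM with vehicle and at 0.803, 1.01 and 0.849 CPM with regorafenib. Emcn, the endothelial sialomucin endomucin, was at 7.51, 8.82 and 9.18 CPM with vehicle against 3.34, 3.39 and 4.47 CPM. In these genes, chosen by small p, which favours close values, the 3 regorafenib tumours were near each other and all under the vehicle range. Their log2 fold changes were -2.06 for Tfr2, -1.58 for Pcdh12 and -1.19 for Emcn, with edgeR adjusted p-values of 0.0833, 0.0854 and 0.0933, none of them under 0.05. In bulk tumour RNA, fewer cells of a type and less RNA per cell cannot be told apart.

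Tagln, which encodes the smooth muscle protein transgelin, was at 37.5, 65.4 and 50.1 CPM with vehicle and at 10.9, 13.7 and 12.3 CPM with regorafenib (log2 fold change -2.05, edgeR adjusted p = 0.0933). Col8a2, a collagen VIII chain, was at 5.83, 7.27 and 5.67 CPM against 0.888, 1.05 and 0.517 CPM (-2.93, edgeR adjusted p = 0.0932). Lgr5, the R-spondin receptor and Wnt target gene, was at 5.663, 5.496 and 6.98 CPM against 2.16, 1.80 and 1.37 CPM (-1.77, edgeR adjusted p = 0.0932). None of the 3 genes overlapped between groups. Spry4, an inhibitor of receptor tyrosine kinase signalling that ERK induces, had a log2 fold change of -1.67, and Nell2, a secreted glycoprotein, one of -4.01 from vehicle values of 1.68 to 2.73 CPM. Idh1, the cytosolic isocitrate dehydrogenase that makes NADPH, was at 53.4, 62.9 and 59.4 CPM with vehicle and at 31.1, 29.8 and 32.8 CPM with regorafenib. Eci1, a mitochondrial enzyme of unsaturated fatty acid oxidation, differed less, at -0.39 on the log2 scale.

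Among the higher genes of smallest p, Oas1b had the second smallest p of all genes. This member of the oligoadenylate synthetase family, which interferon induces and double-stranded RNA activates, is annotated as a polymorphic pseudogene in the reference. It was at 32.5, 31.6 and 28.3 CPM with vehicle and at 62.8, 64.7 and 58.0 CPM with regorafenib (log2 fold change 1.00, standard error 0.132, edgeR adjusted p = 0.0833). Unc13d, needed for the release of cytotoxic granules, was at 37.8 CPM in each vehicle library and at 57.4, 55.4 and 58.2 CPM in the regorafenib libraries. Both genes had nearly the same level in the 3 regorafenib tumours, which a choice by smallest p favours. Chka, the choline kinase that starts phosphatidylcholine synthesis, was at 73.2, 62.9 and 67.4 CPM against 104, 95.1 and 104 CPM. Gdpd5, a glycerophosphodiesterase, was at 48.6, 45.0 and 47.6 CPM against 78.7, 61.7 and 75.7 CPM. Ccdc88c, Carmil1, Aoc2, Herc3 and Col11a2 had log2 fold changes of 0.44 to 0.80 and no overlap between groups.

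**Figure D2:**
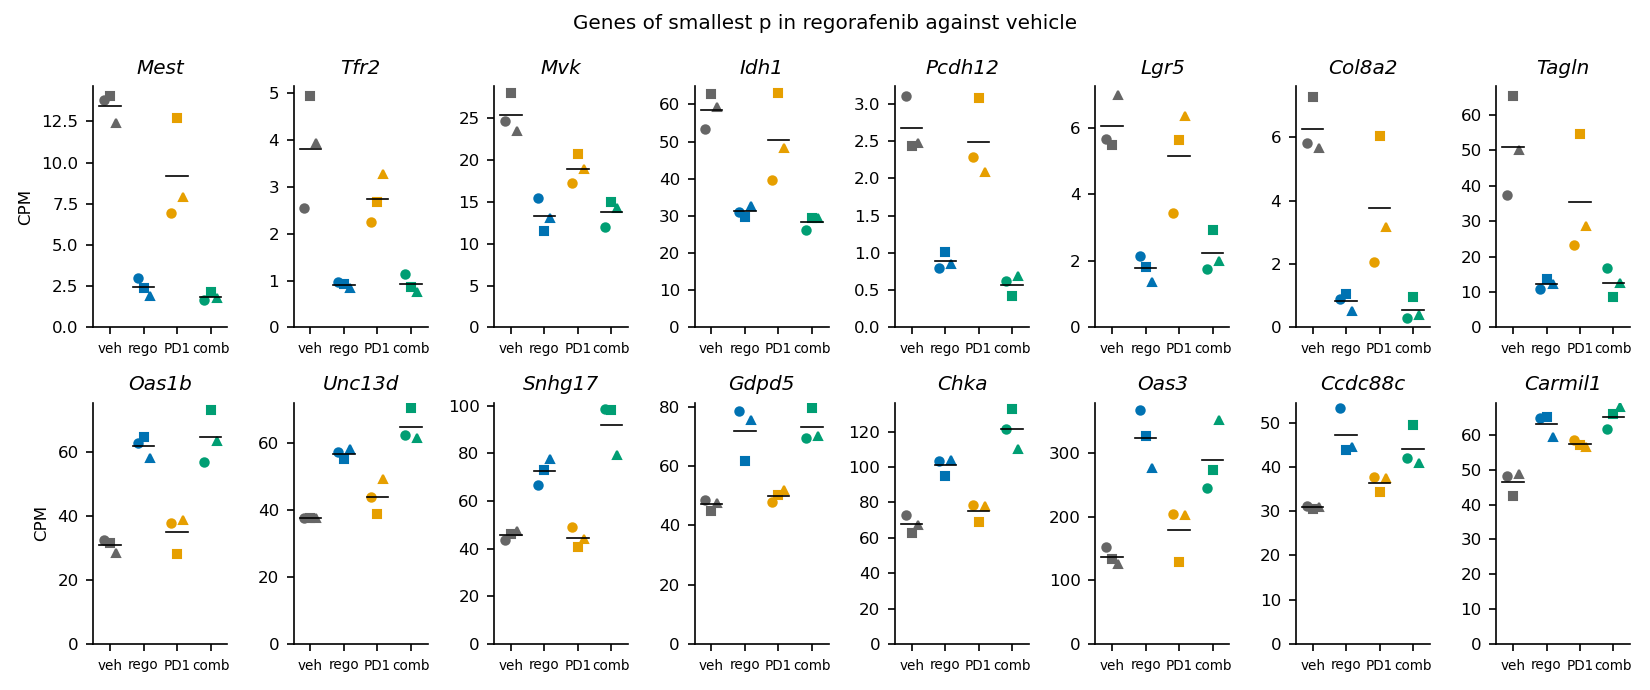
CPM of 16 genes of smallest p in regorafenib against vehicle, lower genes in the top row and higher genes in the bottom row; circles, squares and triangles are replicates 1, 2 and 3 of vehicle (veh), regorafenib (rego), anti-PD1 (PD1) and the combination (comb), and lines are group means. In each panel the 3 regorafenib values lie wholly to 1 side of the 3 vehicle values, as with Mest at 1.92 to 3.00 against 12.4 to 14.0 CPM.

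The largest folds without overlap belonged to genes of low level. Arg1, the arginase of suppressive myeloid cells, was at 1.38, 0.959 and 0.848 CPM with vehicle and at 21.7, 3.25 and 2.66 CPM with regorafenib (log2 fold change 3.11, edgeR adjusted p = 0.201). Pdcd1lg2, which encodes a ligand of PD-1, was at 0.839, 0.922 and 0.694 CPM against 10.2, 6.77 and 0.960 CPM (2.86, edgeR adjusted p = 0.233). Regorafenib 1 and regorafenib 2 carried most of that difference, and regorafenib 3 lay just above the vehicle range. Car4, a carbonic anhydrase, and F10, coagulation factor X, had the same shape, with regorafenib 3 at 0.295 and 0.517 CPM and the other two regorafenib tumours above 3 CPM. On the lower side, Sbspon had a log2 fold change of -3.79, Cyp4a12b one of -3.03 and Lrrn3 one of -2.51, and none passed the test.

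Type I interferon is sensed by nearly all cells, and its signal passes through Stat and Irf factors to the interferon-stimulated response element in the promoters of antiviral genes. Of 32 genes on the type I interferon list, all 32 were tested, all 32 had a positive log2 fold change, and 26 had regorafenib values wholly above the vehicle values, against 10.6% of all genes. Their median log2 fold change was 0.73, against 0.01 over all genes tested. None passed edgeR's threshold, while 27 were higher with an unadjusted p under 0.05, against 8.14% of all genes. DESeq2 called 10 higher, against 1.60% of all genes. The members were 32 of 32 above the vehicle range in regorafenib 1, 32 of 32 in regorafenib 2 and 26 of 32 in regorafenib 3, where the shares of all genes were 37.2%, 36.1% and 36.2%. Without regorafenib 1, 2 or 3 in turn the median was 0.58, 0.75 and 0.97. The mean log2 difference from vehicle was 1.01, 0.791 and 0.345 in regorafenib 1, 2 and 3. It was 0.125, -0.28 and 0.418 in anti-PD1 1, 2 and 3, so anti-PD1 3 lay above regorafenib 3 without the drug.

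The oligoadenylate synthetases led the list. Oas3 was at 152, 134 and 125 CPM with vehicle and at 368, 328 and 277 CPM with regorafenib (log2 fold change 1.24, standard error 0.197, edgeR adjusted p = 0.0854). Oas2 was at 114, 106 and 104 CPM against 330, 288 and 204 CPM (1.34, edgeR adjusted p = 0.121). Mx2, a GTPase that blocks viruses, was at 59.9, 59.9 and 56.5 CPM against 115, 114 and 87.5 CPM. In each of these genes regorafenib 3 was the lowest regorafenib tumour and still above every vehicle tumour. The same order held for Irf7, the factor that amplifies the response, at 451, 375 and 313 CPM with vehicle and 888, 758 and 614 CPM with regorafenib. The Oas1, Ifit3 and Slfn families hold near-identical genes, so reads can be split between members in a way that is not known here.

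The promoters of the list were searched because its members were higher together. RefSeq promoters on GRCm38.p6, from 250 bases before to 50 bases after the gene start, were found for 23 of the 32 genes. A core of the interferon-stimulated response element, written as GAAA, any 2 bases and GAAA again, was found on either strand in 13 of the 23 genes (56.5%), against 1079 of 27025 genes with a promoter (3.99%). The list was made of genes of this response, so a share above that of all genes follows from how it was chosen. That share says nothing about regorafenib. The 3 genes of smallest p with a match are shown in the direction of transcription, with the match in capitals. They were chosen after their values were seen, and a match is a description of the letters.

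Oas3, chr5:120777610-120777909, minus strand: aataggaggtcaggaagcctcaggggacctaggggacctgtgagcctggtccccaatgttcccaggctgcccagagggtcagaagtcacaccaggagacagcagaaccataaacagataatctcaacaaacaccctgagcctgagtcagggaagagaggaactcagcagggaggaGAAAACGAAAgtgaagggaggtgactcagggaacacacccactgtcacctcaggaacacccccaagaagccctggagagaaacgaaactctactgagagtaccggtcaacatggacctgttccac
Oas1g, chr5:120887564-120887863, minus strand: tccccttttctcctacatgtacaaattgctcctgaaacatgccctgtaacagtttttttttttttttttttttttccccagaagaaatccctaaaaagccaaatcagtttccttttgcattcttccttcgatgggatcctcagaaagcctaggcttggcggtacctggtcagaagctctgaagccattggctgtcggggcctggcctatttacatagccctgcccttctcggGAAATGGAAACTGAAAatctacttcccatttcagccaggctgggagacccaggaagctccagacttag
Stat2, chr10:128270248-128270547, plus strand: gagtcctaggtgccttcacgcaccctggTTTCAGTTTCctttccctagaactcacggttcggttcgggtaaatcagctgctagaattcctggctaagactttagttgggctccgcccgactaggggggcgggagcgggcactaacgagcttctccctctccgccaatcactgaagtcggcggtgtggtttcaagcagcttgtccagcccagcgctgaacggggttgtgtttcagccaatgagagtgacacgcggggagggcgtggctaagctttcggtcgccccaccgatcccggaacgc

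The match began 75 bases before the gene start in Oas3. Oas1g held 2 overlapping matches at 18 and 12 bases before its start. The match of Stat2 lay on the opposite strand, 222 bases before its start. The 10 genes without a match lack only these letters in this window.

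Genes of the interferon gamma response and of immune cells separated the regorafenib tumours from each other. All 16 T cell genes had a positive log2 fold change with a median of 0.87, but none had groups that did not overlap. All 16 were above the vehicle range in regorafenib 1 and in regorafenib 2, and none was above it in regorafenib 3. Cd8a, the coreceptor of cytotoxic T cells, was at 15.8, 15.6 and 13.3 CPM with vehicle and at 31.6, 35.1 and 15.7 CPM with regorafenib. Regorafenib 1 and 2 thus had more Cd8a RNA than every vehicle tumour, and regorafenib 3 had a vehicle level. High T cell values were also found in a tumour without regorafenib. The mean log2 difference from vehicle over the T cell genes was 1.17, 1.29 and -0.13 in regorafenib 1, 2 and 3. In anti-PD1 1, 2 and 3 it was 0.54, -0.07 and 1.34.

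Cytotoxic lymphocyte genes had a median of 1.08 over 19 genes, all positive, with 7 not overlapping, against 10.6% of all genes. Above the vehicle range were 17 of 19 in regorafenib 1 and 19 of 19 in regorafenib 2. In regorafenib 3, 7 were above it and 6 below, against 36.2% and 36.1% of all genes. The mean log2 difference was 1.25, 1.52 and -0.155 in regorafenib 1, 2 and 3, and 1.42 in anti-PD1 3. Gzmb, the granule protease granzyme B, was at 14.9, 12.1 and 6.67 CPM with vehicle and at 64.2, 57.0 and 13.4 CPM with regorafenib (log2 fold change 2.00, edgeR adjusted p = 0.217). Prf1, the pore-forming perforin, was at 4.24, 3.50 and 1.89 CPM against 11.2, 9.67 and 7.31 CPM. Prf1 was above the vehicle range in all 3 regorafenib tumours, while Gzmb in regorafenib 3 lay inside it. Among 18 checkpoint and regulatory T cell genes, all were positive, with a median of 0.87. Of the 18 genes 6 did not overlap, against 10.6% of all genes. All 18 were above the vehicle range in regorafenib 1 and in regorafenib 2. In regorafenib 3, 6 were above it and 5 below. Tigit was at 4.78, 3.87 and 3.82 CPM with vehicle and at 15.4, 11.2 and 5.50 CPM with regorafenib. Tnfrsf9, a costimulatory receptor of activated T cells, was at 8.05, 7.27 and 4.24 CPM against 19.8, 18.3 and 12.5 CPM.

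The interferon gamma list had 25 positive values of 25 and a median of 0.59, which was 0.31 without regorafenib 2. Of the 25 genes 4 lay wholly above the vehicle values, against 10.6% of all genes. The tumours followed the T cell lists: 22 of 25 genes were above the vehicle range in regorafenib 1, 25 in regorafenib 2 and 4 in regorafenib 3. Nlrc5, the transactivator of MHC class I genes, was at 334, 304 and 237 CPM with vehicle and at 511, 619 and 432 CPM with regorafenib. The 13 MHC class I presentation genes had a median of 0.20, or 0.10 without regorafenib 2, with 5 not overlapping, against 10.6% of all genes. H2-K1 was at 2856, 2849 and 2569 CPM against 3232, 3309 and 2958 CPM. The H2 genes of C3H mice differ from those of the C57BL/6J reference, and the part of this in the counts was not tested. The MHC class II median turned on a single tumour. All 11 genes were above the vehicle range in regorafenib 1 and in regorafenib 2, and 7 of 11 were below it in regorafenib 3. The median was 0.40 with all 3 tumours and -0.00149 without regorafenib 2.

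Myeloid lists differed between the regorafenib tumours. The mean log2 difference from vehicle over 15 myeloid activation genes was 1.67 in regorafenib 1, 0.58 in regorafenib 2 and 0.30 in regorafenib 3. All 15 had a positive fold change and 4 did not overlap, against 10.6% of all genes. Of 18 macrophage genes, all 18 were above the vehicle range in regorafenib 1, 16 in regorafenib 2 and 2 in regorafenib 3. In regorafenib 3, 9 of the 18 were below it. The mean log2 difference of the macrophage genes was 1.03, 0.755 and -0.151 in regorafenib 1, 2 and 3. Their summed level was 2278 CPM in regorafenib 1, whereas it was 2407 CPM in regorafenib 2. Mertk, a receptor for dying cells, was at 5.66, 3.98 and 4.28 CPM with vehicle and at 12.5, 13.5 and 5.83 CPM with regorafenib. Neutrophil genes had a median of 1.07 over 16 tested of 21, with 4 wholly above the vehicle values, against 10.6% of all genes. Ly6g, Ngp, Camp, Stfa2l1 and Wfdc21 had too few counts to be tested, and Ly6g is a defining neutrophil marker. The mean log2 difference of the tested neutrophil genes was 1.47, 0.96 and 0.44 in regorafenib 1, 2 and 3. In vehicle 1 it was 0.40, so regorafenib 3 was near a vehicle tumour. Slfn4, a gene of the list that is not a defining neutrophil marker, was at 11.5, 6.05 and 8.72 CPM with vehicle. With regorafenib it was at 59.1, 31.8 and 12.6 CPM. Dendritic cell genes were above the vehicle range for 11 of 11 in regorafenib 1 and 9 of 11 in regorafenib 2, and below it for 7 of 11 in regorafenib 3. Mast cell genes stood out in another tumour, with 8 of 8 above the vehicle range in regorafenib 2, against 36.1% of all genes. In regorafenib 1 and 3, 5 of 8 were below it, against 37.4% and 36.1% of all genes. Their mean log2 differences there were -0.21 and -0.34, beside -0.30 in vehicle 2.

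Y-linked and skeletal muscle genes also differed between these tumours. Whether Sq-1979 cells carry a Y chromosome was not tested. The summed level of 4 Y-linked genes, which mark RNA of cells that carry a Y chromosome, was 25.6 to 33.6 CPM in the vehicle tumours and 32.1, 41.7 and 18.1 CPM in regorafenib 1, 2 and 3. Among the 3 regorafenib tumours it was lowest in regorafenib 3, which also had the least T cell RNA of the 3. The summed T cell level was 111.0 CPM in regorafenib 3 and 110.6 CPM in vehicle 3, where the Y-linked level was 30.8 CPM. The part of the Y-linked level in the immune values was not tested beyond a fit that held it constant. That fit called 173 genes higher and 122 lower by edgeR. The summed level of 12 skeletal muscle genes was 190 to 414 CPM with vehicle, 507 and 404 CPM in regorafenib 2 and 3, and 5.37 CPM in regorafenib 1, where 3 of the 12 genes were at 0.

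**Figure D3:**
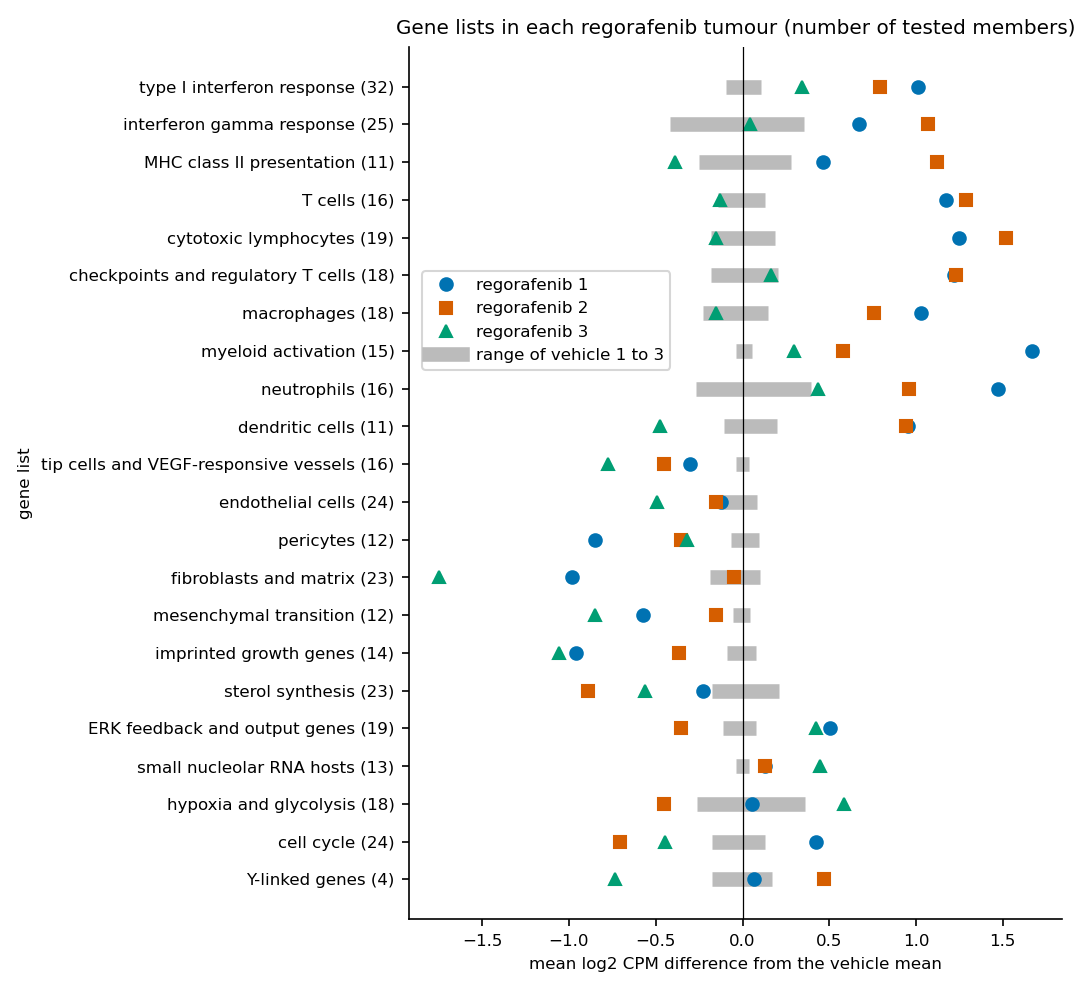
Mean log2 CPM difference from the vehicle mean (x axis) over the tested members of 22 gene lists (y axis, number of members in brackets) in regorafenib 1, 2 and 3; grey bars span the 3 vehicle libraries. T cell genes are at 1.17 and 1.29 in regorafenib 1 and 2 and at -0.13 in regorafenib 3, while fibroblast and matrix genes are at -0.98 and -1.75 in regorafenib 1 and 3 and at -0.05 in regorafenib 2.

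Of 19 kinases that the drug inhibits, 18 were tested and 12 had a negative fold change. On the lower side 3 did not overlap, against 10.2% of all genes. The log2 fold changes of the 18 kinases ran from -1.07 to 1.11 with a median of -0.14, which was -0.06 without regorafenib 3. None passed edgeR's threshold. In regorafenib 1, 2 and 3, 10, 6 and 11 of the 18 were below the vehicle range, against 37.4%, 37.7% and 36.1% of all genes. Their summed level was 1178 to 1215 CPM with vehicle and 1039, 1254 and 975 CPM in regorafenib 1, 2 and 3. Flt4, the VEGF receptor of lymphatic and sprouting vessels, was at 7.80, 9.63 and 10.3 CPM with vehicle and at 3.55, 4.57 and 5.13 CPM with regorafenib (log2 fold change -1.06, edgeR adjusted p = 0.165). Fgfr1 and Fgfr2 also had no overlap, with log2 fold changes of -0.29 and -0.34. Among the 15 ligands, Angpt2, the Tie2 ligand that tip cells release, was at 7.59, 7.16 and 8.68 CPM with vehicle and at 5.20, 5.10 and 4.73 CPM with regorafenib. Vegfa was at 89.1, 126 and 61.3 CPM against 137, 89.6 and 176 CPM. Angpt2 separated the groups, while Vegfa overlapped and had an edgeR adjusted p of 0.49.

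None of 16 tip cell and VEGF-responsive genes passed edgeR's threshold. In regorafenib 1, 2 and 3, 9, 8 and 12 of them were below the vehicle range and 4, 3 and 2 above it. Of all genes, 37.4%, 37.7% and 36.1% were below it. Of the 16 tip cell and VEGF-responsive genes, 12 had a negative fold change, 6 lay wholly below the vehicle values and 1 above, against 10.2% and 10.6% of all genes, and the median was -0.40. Nid2, a basement membrane nidogen, was at 33.6, 36.5 and 30.8 CPM with vehicle and at 11.6, 17.7 and 5.69 CPM with regorafenib (log2 fold change -1.53, edgeR adjusted p = 0.165). Kcne3, a potassium channel subunit found in tip cells, was at 2.56, 3.58 and 4.24 CPM against 1.40, 1.72 and 0.923 CPM. DESeq2 called 5 of the 16 lower, against 0.901% of all genes, and without regorafenib 3 the median was -0.22.

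Of 24 endothelial genes, 20 had a negative fold change. Without overlap were 10 on the lower side and 1 on the higher side, against 10.2% and 10.6% of all genes. The median of the list was -0.19, or -0.32 without regorafenib 2 and -0.12 without regorafenib 3. Cldn5, the tight junction claudin of endothelium, was at 5.83, 5.39 and 3.43 CPM with vehicle and at 2.62, 2.29 and 2.18 CPM with regorafenib. Tie1, a receptor of the Tie family, was at 9.65, 12.3 and 11.3 CPM against 7.74, 6.68 and 7.01 CPM. Vwf, the clotting factor of endothelial granules, went the other way, at 9.90, 9.63 and 9.33 CPM with vehicle and 19.5, 18.4 and 14.1 CPM with regorafenib (log2 fold change 0.85, edgeR adjusted p = 0.228). Pecam1, the defining endothelial marker, was at 27.2, 31.2 and 34.2 CPM against 34.7, 32.6 and 24.9 CPM. The endothelial list was thus split, with Emcn, Cldn5 and Tie1 under the vehicle range in all 3 tumours and Pecam1 overlapping it.

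Pericyte genes had a median of -0.57 over 12 genes, or -0.36 without vehicle 3. Of the 12 genes 10 were negative and 5 did not overlap on the lower side, against 10.2% of all genes. Abcc9 and Kcnj8, the 2 subunits of the pericyte potassium channel, were both lower in every regorafenib tumour. Abcc9 was at 5.71, 5.35 and 5.75 CPM with vehicle and at 3.76, 4.05 and 3.47 CPM with regorafenib, and Kcnj8 at 2.18, 2.03 and 2.20 CPM against 1.48, 1.19 and 1.22 CPM. Rgs5 overlapped between groups. Smooth muscle and myofibroblast genes had 4 of 9 lower and 1, Lmod1, higher without overlap, against 10.2% and 10.6% of all genes. Among the 4 lower was Acta2, at 130, 219 and 140 CPM against 125, 83.7 and 109 CPM. The median of the list was 0.10 and changed sign without vehicle 1, regorafenib 1 or regorafenib 3.

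Fibroblast and matrix genes differed in size between the tumours, with mean log2 differences from vehicle of -0.98, -0.05 and -1.75 in regorafenib 1, 2 and 3. All 23 had a negative fold change, with a median of -0.62 and 7 not overlapping, against 10.2% of all genes. None of the 23 passed edgeR's or DESeq2's threshold. Regorafenib 1 was below the vehicle range for 22 of 23 genes and regorafenib 3 for 23 of 23, against 37.4% and 36.1% of all genes, while regorafenib 2 was below it for 8 and above it for 6. Col1a1, the main collagen I chain, was at 12590, 9810 and 12110 CPM with vehicle and at 4256, 12390 and 2003 CPM with regorafenib. Regorafenib 2 therefore had as much Col1a1 RNA as vehicle. Lum, the proteoglycan lumican, was at 299, 252 and 284 CPM against 53.0, 136 and 29.4 CPM, with all 3 tumours lower. The median of the list was -1.30 without regorafenib 2 and -0.29 without regorafenib 3. Low matrix RNA was also found in a tumour without regorafenib. The mean log2 difference from vehicle was -1.44 in anti-PD1 1, and 0.04 and 0.13 in anti-PD1 2 and 3.

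Of 12 tested genes of mesenchymal transition, 10 were negative, and the median was -0.43. On the lower side 6 did not overlap, against 10.2% of all genes. Snai2, the repressor Slug, was at 122.7, 120 and 117 CPM with vehicle and at 62.2, 95.2 and 94.4 CPM with regorafenib. Cdh2, N-cadherin, was at 5.33, 4.46 and 4.63 CPM against 1.01, 2.59 and 0.775 CPM. Tgfb2, a transforming growth factor ligand, was at 38.0, 44.8 and 45.7 CPM against 27.1, 36.1 and 30.5 CPM.

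Imprinted genes of growth are expressed from 1 parental copy and are high in embryonic and mesenchymal tissue. Of 20 on the list 14 were tested and 11 were negative, with a median of -0.67. On the lower side 6 did not overlap and on the higher side 1, against 10.2% and 10.6% of all genes. Peg3, a zinc finger gene, was at 20.1, 21.8 and 20.3 CPM with vehicle and at 4.53, 10.1 and 4.91 CPM with regorafenib (log2 fold change -1.67, edgeR adjusted p = 0.165). Ndn, necdin, was at 3.27, 4.06 and 4.17 CPM against 2.37, 2.24 and 1.70 CPM. Igf2r, the maternally expressed receptor that clears insulin-like growth factor, went the other way at 68.4, 72.2 and 69.2 CPM against 83.8, 83.3 and 91.0 CPM. Like collagen, Peg3 was highest among regorafenib tumours in regorafenib 2, whereas Mest was low in all 3 alike.

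Sterol synthesis makes cholesterol from acetyl-CoA through mevalonate, under the factor Srebf2. Of its 23 genes, 22 had a negative fold change, with a median of -0.47. That median was -0.79 without regorafenib 1 and -0.31 without regorafenib 2. Wholly below the vehicle values lay 12 genes, against 10.2% of all genes, and none lay above. Low sterol values were not particular to regorafenib. The mean log2 difference from vehicle was -0.23, -0.89 and -0.56 in regorafenib 1, 2 and 3. It was -0.67, -0.32 and -0.38 in anti-PD1 1, 2 and 3. The regorafenib tumours ranked differently here: 22 of 23 genes were below the vehicle range in regorafenib 2, 20 in regorafenib 3 and 13 in regorafenib 1. Mvk, mevalonate kinase, was at 24.7, 28 and 23.4 CPM with vehicle and at 15.4, 11.6 and 13.1 CPM with regorafenib (log2 fold change -0.92, standard error 0.136, edgeR adjusted p = 0.0854). Nsdhl was at 41.8, 53.6 and 42.7 CPM against 35.6, 22.95 and 24.2 CPM, and Cyp51, lanosterol demethylase, at 73.5, 104 and 84.6 CPM against 70.7, 35.0 and 45.5 CPM. Regorafenib 1 was just under the vehicle range in the last gene and the other two were far under it. Hmgcs1, which makes the precursor of mevalonate, was at 209, 206 and 205 CPM with vehicle and at 131, 132 and 185 CPM with regorafenib.

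**Figure D4:**
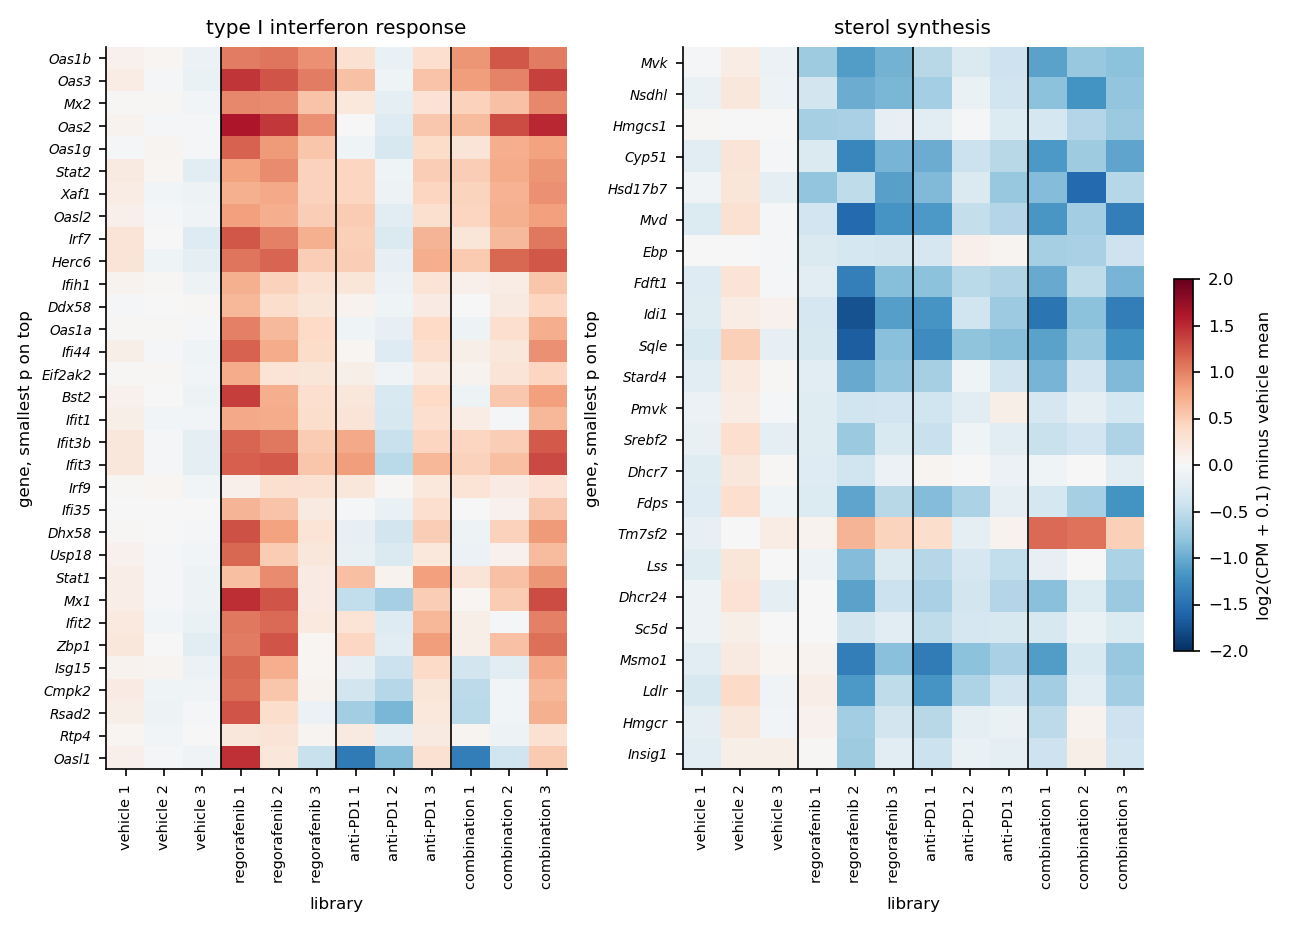
Log2(CPM + 0.1) minus the vehicle mean for the 32 type I interferon genes (left) and 23 sterol synthesis genes (right), in rows ordered by p, across the 12 libraries in columns; red is higher and blue lower than vehicle, with colours limited at 2. Of the interferon genes 26 and of the sterol genes 12 have regorafenib values wholly to 1 side of the vehicle values.

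The letters TCACNCCAC, a form of the sterol regulatory element, were found in the promoters of 1 of 16 sterol genes with an entry (6.25%) and of 1.44% of all genes. Of 15 fatty acid and NADPH genes, 11 were negative and 4 lay wholly below the vehicle values, against 10.2% of all genes. The median of the list was -0.11, which turned to 0.018 without regorafenib 2 and was -0.21 without regorafenib 1. Scd2, a stearoyl-CoA desaturase, was at 149, 193 and 147 CPM with vehicle and at 93.9, 106 and 83.1 CPM with regorafenib (log2 fold change -0.79, edgeR adjusted p = 0.128). The 14 tested iron genes had a median of -0.05, with 3 lower without overlap, against 10.2% of all genes. Besides Tfr2 the 3 included Slc40a1, the iron exporter ferroportin, at 10.2, 8.82 and 8.48 CPM against 4.02, 5.19 and 6.61 CPM.

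ERK feedback and output genes report on the cascade that Raf feeds. Of 19 genes, 5 did not overlap on the higher side and 1, Spry4, on the lower side, against 10.6% and 10.2% of all genes. A positive fold change was found for 16 of the 19, and the median of the list was 0.34. That median was 0.21 without regorafenib 1, 0.61 without regorafenib 2 and 0.07 without regorafenib 3. Dusp6, the ERK phosphatase, was at 124, 120 and 137 CPM with vehicle and at 187, 139 and 204 CPM with regorafenib. Dusp4 was at 6.04, 5.87 and 5.86 CPM against 12.4, 8.09 and 11.1 CPM. Regorafenib 2 was the lowest of the regorafenib tumours in both genes, and over the list 12 of 19 genes were below the vehicle range in it, against 2 in regorafenib 1 and 1 in regorafenib 3. Small nucleolar RNA host genes had a median of 0.23, with 12 of 13 positive and 8 higher without overlap, against 10.6% of all genes. Snhg17 was at 43.5, 46.2 and 47.6 CPM with vehicle and at 66.7, 73.1 and 77.8 CPM with regorafenib (log2 fold change 0.66, edgeR adjusted p = 0.0854).

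Cell cycle genes split the tumours in opposite directions. Of 24 genes, 23 were above the vehicle range in regorafenib 1, 23 below it in regorafenib 2 and 22 below it in regorafenib 3, and no gene separated the groups. Mki67, the proliferation marker, was at 295, 408 and 334 CPM with vehicle and at 515, 241 and 301 CPM with regorafenib. Ccnb2, cyclin B, was at 51.1, 74.1 and 67.0 CPM against 74.4, 26.8 and 42.2 CPM. Hypoxia and glycolysis genes gave another order, with 16 of 18 above the vehicle range in regorafenib 3 and 12 of 18 below it in regorafenib 2. Their median log2 fold change was 0.10, or -0.10 without regorafenib 3 and 0.33 without regorafenib 2, and no gene of the list separated the groups.

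Squamous genes had a median of -0.09 over 18 genes, between -0.19 and -0.03 when 1 of the 6 libraries was left out. Of the 18 genes 3 were lower without overlap, against 10.2% of all genes. Krt14, the basal partner of Krt5, was at 4320, 5102 and 4618 CPM with vehicle and at 2732, 3234 and 3375 CPM with regorafenib (log2 fold change -0.59, edgeR adjusted p = 0.21). Krt14 was thus lower in all 3 tumours while Krt5 overlapped. Krt10, a keratin of differentiating layers, was at 27.1 CPM in regorafenib 2 and under 1 CPM in the other 5 libraries. Integrated stress response genes had a median of 0.05, or -0.18 without regorafenib 1. Of the 16 genes only 1, Ddit3, was higher without overlap, against 10.6% of all genes.

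Among genes of at least 10 CPM, those that varied most between the regorafenib tumours were mainly of skeletal muscle. Acta1, skeletal actin, was at 108, 72.9 and 141 CPM with vehicle, at 0 CPM in regorafenib 1 and at 140 and 134 CPM in regorafenib 2 and 3. Ckm, muscle creatine kinase, was at 10.6, 9.22 and 19.01 CPM with vehicle and at 0, 29.7 and 23.5 CPM with regorafenib. A count of 0 in regorafenib 1 allows up to 3 counts, or 0.127 CPM, for counting error only. Of the 10 genes 8 were of muscle and had this shape, and the other 2 were not. Gsdmc, a gasdermin, was at 2.56, 2.03 and 1.74 CPM with vehicle and at 66.7, 9.85 and 0.0369 CPM with regorafenib. Fcgbp, a mucus-associated protein, was at 33.4, 13.5 and 26.0 CPM against 193, 248 and 1.33 CPM.

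The same drug was given beside anti-PD1 in 6 libraries that the comparison above does not use, so the 2 contrasts share no tumour. Over all 16974 genes the log2 fold changes of regorafenib against vehicle and of the combination against anti-PD1 had a Pearson r of 0.568 and a Spearman rho of 0.559 across genes, which are not independent replicates. They had the same sign for 72.6% of all genes and for 2247 of the 2398 genes with an unadjusted p under 0.05 in regorafenib against vehicle (93.7%). The combination differed from anti-PD1 for 288 genes higher and 38 lower by edgeR (1.70% and 0.224%). The count was 0 with the replicate block and without anti-PD1 2, anti-PD1 3 or combination 2. It was 21 without combination 1, 45, 89 and 58 without vehicle 1, 2 and 3, whose spread the fit shares, and 209 without regorafenib 3. Mest was among the latter, at 6.92, 12.7 and 7.94 CPM with anti-PD1 and 1.64, 2.12 and 1.81 CPM with the combination (log2 fold change -2.30, edgeR adjusted p = 0.00878). Oas1b was among the former, at 37.9, 28.1 and 38.8 CPM against 56.8, 73.1 and 63.5 CPM (0.89, edgeR adjusted p = 0.0159). Both calls were lost with the replicate block, with edgeR adjusted p-values of 0.0626 and 0.0761. They were lost as well without anti-PD1 2, anti-PD1 3 or combination 2, with values of up to 0.0666 for Mest and 0.11 for Oas1b.

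**Figure D5:**
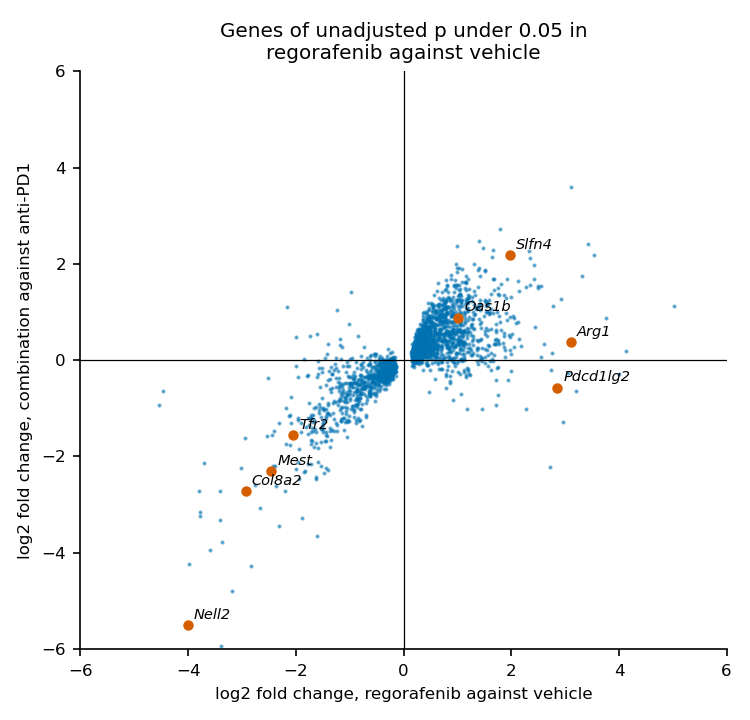
Log2 fold change of regorafenib against vehicle (x axis) and of the combination against anti-PD1 (y axis) for the 2398 genes of unadjusted p under 0.05 in the former; each blue point is a gene and 8 named genes are in orange. Of these genes 93.7% have the same sign on both axes; Pdcd1lg2, at 2.86 and -0.57, does not.

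Medians of the immune lists beside anti-PD1 were lower in some lists and not in others. The median of the T cell genes was 0.87 for regorafenib alone and -0.08 beside anti-PD1, and that of the cytotoxic genes 1.08 and -0.15. The neutrophil genes had medians of 1.07 and 1.22, and the B and plasma cell genes 0.94 and 1.44. The type I interferon genes had medians of 0.73 and 0.34, the fibroblast and matrix genes -0.62 and -1.15, the tip cell genes -0.40 and -0.69, and the sterol genes -0.47 and -0.15. Over all genes the test of the difference itself, the interaction, called 0 genes by edgeR, and 449 had an unadjusted p under 0.05 (2.65%). DESeq2 and limma also called 0. Among the 19 cytotoxic genes 4 had an unadjusted interaction p under 0.05, and among the 16 T cell genes 1 did. Gzmb was at 21.8, 12.5 and 42.9 CPM with anti-PD1 and at 16.8, 13.8 and 35.4 CPM with the combination. Of its 3 levels with the antibody alone, 2 lay above the vehicle range.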

How the data were processed

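RNA of 12 tumours was sequenced from poly(A)-selected stranded libraries, per the labels' protocols. The values used are whole-number counts per gene as the authors deposited them, with no normalization. Per the submitters' processing notes, cutadapt 2.4, STAR 2.7.2a and the GRCm38 build were used; the counting tool and its strand setting are not given in the sources used here. Gene names came from the GENCODE M21 annotation of that build and matched 55227 of 55487 identifiers.

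Counts were scaled by TMM over all 12 libraries and filtered by edgeR's filterByExpr with its count minimum of 10, which kept 16974 genes and 99.91% to 99.94% of each library's counts. One edgeR 4.0.16 quasi-likelihood fit (R 4.3.3) of 4 group means gave regorafenib against vehicle, the combination against anti-PD1, and their interaction, two-sided, with Benjamini-Hochberg adjustment over all genes. Standard errors are the size of the log2 fold change divided by the root of the F statistic. The fit was tested on simulated counts. DESeq2 1.42.0 and limma 3.58.1 with voom quality weights were alternatives, with other normalization, no filter, a replicate block, a Y-linked covariate, only the 6 libraries, and each library left out.

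Genes named are those past the threshold, the 12 higher and 12 lower of smallest p and the 5 higher and 5 lower of largest fold without overlap (mean of at least 1 CPM), the 10 of at least 10 CPM that varied most between regorafenib tumours, and in each gene list the 4 of smallest p and the 2 of highest CPM. Predicted genes, clones and antigen receptor segments were not named. The 39 gene lists and the comparisons were chosen with earlier results of these data known.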

Additional observations from a re-analysis of the deposited data

How the results depend on the processing

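In regorafenib against vehicle, edgeR called 1 gene, and the count was 6 with no filter on low counts, 0 with the replicate block, 295 with the Y-linked covariate, 0 with only the 6 libraries, 0 with limma voom and 425 with DESeq2. Leaving out 1 library gave 0 to 4 genes: 0 without any vehicle or regorafenib library or combination 3, and 4 without anti-PD1 2. At an unadjusted p under 0.05, the fits that called 0 genes still held 1877 genes with the replicate block, 2136 with the 6 libraries and 2334 with limma voom. For the combination against anti-PD1, edgeR called 326 genes, against 0 with the replicate block, 795 with the Y-linked covariate, 1165 with limma voom, 1202 with DESeq2 and 0 to 432 when 1 library was left out. Size factors of the RLE kind gave 1 and 309 genes in these contrasts. The interaction called 0 genes under every alternative run. Replicate numbers did not pair the samples: deviations from the group means of same-numbered vehicle and regorafenib libraries had correlations of -0.116, -0.273 and 0.03 across genes. The cause of these differences in count was not tested.

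Of 83 genes with printed values, 46 that edgeR did not call in regorafenib against vehicle were called by DESeq2, 34 with the Y-linked covariate and 4 with no filter on low counts. Of the same 83, 5 that edgeR did not call had a log2 fold change that turned sign under an alternative. Ckm was at -1.79 with limma voom and at -0.12 to 1.04 when 1 library was left out. Pecam1 was at 0.022 with the replicate block, 0.011 with the Y-linked covariate, 0.0012 with only the 6 libraries and -0.10 to 0.14 when 1 library was left out. Mki67 was at -0.076 with limma voom and at -0.35 to 0.25 when 1 library was left out. The same ranges were -0.67 to 0.35 for Acta1 and -0.16 to 4.57 for Krt10, and both turned with a regorafenib library left out.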

Other observations

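Lists of other tissues that a tumour sample could hold gave these values. Of 14 B and plasma cell genes 9 were tested, with a median log2 fold change of 0.94 in regorafenib against vehicle and of 0.00453 without regorafenib 1. Igha, the constant region of immunoglobulin A, was at 13.6, 9.96 and 7.64 CPM with vehicle and at 39.1, 14.8 and 6.09 CPM with regorafenib, so regorafenib 1 stood apart. The summed level of 9 adipocyte genes was 19.8 to 61.8 CPM with vehicle and 36.3 to 43.6 CPM with regorafenib. Red blood cell genes summed to 3.50 to 11.03 CPM with vehicle and to 11.8, 1.85 and 33.7 CPM in regorafenib 1, 2 and 3. Schwann cell genes summed to 32.3 to 40.1 CPM with vehicle and to 12.9, 26.3 and 14.1 CPM with regorafenib. Their median log2 fold change was 0.50, and it was -0.48 without regorafenib 3, 0.22 without vehicle 1 and 0.12 without vehicle 3.

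Immediate early genes had a median of 0.18 over 10 genes, or -0.04 without regorafenib 1. Of the 10 genes 2 were higher and 1 lower without overlap, against 10.6% and 10.2% of all genes. Mitochondrially encoded genes had a median of -0.02 over 7 tested of 13, between -0.06 and 0.08 when 1 of the 6 libraries was left out. Cornified envelope genes had a median of 0.31 over 10 tested of 16, or 0.16 without regorafenib 2. Without overlap 1 was higher and 1 lower, against 10.6% and 10.2% of all genes. Cdsn, which encodes a protein of cornified cell junctions, was at 0.168, 0.295 and 0.116 CPM with vehicle and at 0.338, 3.65 and 0.554 CPM with regorafenib. Krtdap, a keratinocyte differentiation protein, was at 14.8, 17.3 and 21.8 CPM against 5.58, 9.67 and 12.7 CPM.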
